A study of Mus musculus with 6 samples.

Results

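The genes described here encode 9 LIM-domain proteins of the muscle Z-disc and its surroundings, namely Fhl1, Fhl2, Csrp3, Pdlim1, Pdlim3, Pdlim4, Pdlim5, Pdlim7 and Ldb3. They were chosen by name, with earlier results of these data known. All 25 probes that carry these symbols in the platform annotation were read, of 45281 probes on the array. Of these, 22 probes lay above background on at least 2 arrays, and all 9 genes were among the 11285 genes tested. Total RNA of adult mouse hearts was measured on 6 single-colour Illumina bead arrays, 3 from Kdm4a (Jmjd2a) knockout hearts and 3 from wild-type hearts. Each wild-type title names the knockout that it serves as control, which gives 3 pairs of arrays. The general pair holds 1 heart with a general knockout and 1 wild-type heart of unstated sex. The heart-specific line holds a female pair and a male pair, each with 1 heart-specific knockout and 1 wild-type heart. The labels name neither the strain, the allele nor the promoter that drives the heart-specific deletion, and no agent or surgery is given for any heart.

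LIM domains are paired zinc fingers that bind other proteins. Fhl1 and Fhl2 consist of LIM domains almost alone and bind titin and signalling kinases, and Fhl1 is known to be raised in hypertrophic and mechanically stressed myocardium. Csrp3, also called muscle LIM protein, has a pair of LIM domains and takes part in stretch signalling at the Z-disc. The Pdlim proteins and Ldb3 (also called Cypher or ZASP) join a PDZ domain to 1 or 3 LIM domains and anchor partners to alpha-actinin, the crosslinker of actin filaments at the Z-disc. Kdm4a is a histone lysine demethylase, and earlier work in mouse hearts described Fhl1 as a gene that it activates at the promoter together with serum response factor (SRF). The comparison of knockout with wild-type hearts therefore bears on Fhl1 by name, and on the other Z-disc LIM genes as its relatives.

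SRF binds a sequence called the CArG box. The following windows are shown because they hold this box in 3 of the 9 genes and lack it for Pdlim3, the gene with the widest difference in the heart-specific line. Each is the stretch of 250 bases before a transcription start, written 5′ to 3′ on the gene's strand from RefSeq on GRCm38.p6, and capitals mark an exact CArG box, an exact MEF2 site, or GGAATG, the core of the site bound by TEAD factors.
Fhl1, chrX:56779433-56779682, plus strand: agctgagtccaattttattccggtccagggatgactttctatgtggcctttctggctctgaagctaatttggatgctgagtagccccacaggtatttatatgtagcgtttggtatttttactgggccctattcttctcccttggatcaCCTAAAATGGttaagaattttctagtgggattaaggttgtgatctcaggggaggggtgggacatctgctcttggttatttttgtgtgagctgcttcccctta
Fhl2, start at the lower coordinate, chr1:43163962-43164211, minus strand: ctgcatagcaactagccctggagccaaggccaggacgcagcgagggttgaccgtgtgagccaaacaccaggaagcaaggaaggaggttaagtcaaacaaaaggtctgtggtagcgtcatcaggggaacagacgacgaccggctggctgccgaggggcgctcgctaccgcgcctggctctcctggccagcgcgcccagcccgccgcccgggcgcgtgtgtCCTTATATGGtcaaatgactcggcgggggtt
Fhl2, start at the higher coordinate, chr1:43196762-43197011, minus strand: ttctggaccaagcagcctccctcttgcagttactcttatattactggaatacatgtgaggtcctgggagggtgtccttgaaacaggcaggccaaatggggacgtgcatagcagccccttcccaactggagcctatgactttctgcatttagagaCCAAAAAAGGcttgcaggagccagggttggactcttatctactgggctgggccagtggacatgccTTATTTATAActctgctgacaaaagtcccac
Ldb3, chr14:34588608-34588857, minus strand: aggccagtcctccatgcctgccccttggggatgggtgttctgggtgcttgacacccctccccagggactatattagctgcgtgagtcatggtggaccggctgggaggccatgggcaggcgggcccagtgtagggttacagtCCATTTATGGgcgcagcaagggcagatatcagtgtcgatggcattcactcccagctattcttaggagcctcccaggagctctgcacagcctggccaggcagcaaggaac
Pdlim3, chr8:45885237-45885486, plus strand: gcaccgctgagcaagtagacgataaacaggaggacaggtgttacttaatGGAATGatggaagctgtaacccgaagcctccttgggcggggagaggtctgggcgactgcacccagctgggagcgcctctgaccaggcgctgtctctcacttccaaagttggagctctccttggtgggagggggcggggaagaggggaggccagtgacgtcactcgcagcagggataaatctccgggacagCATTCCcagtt

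The Fhl1 box ends 92 bases before the start shown. Another Fhl1 start, at a higher coordinate, has a window without a CArG box, which is not printed. The boxes of Fhl2 end 21 and 86 bases before its starts, and the Ldb3 box ends 99 bases before this start and 25 bases before another start whose window overlaps it. A MEF2 site lies 21 bases before the Fhl2 start at the higher coordinate. Pdlim3 has GGAATG 195 bases before its start and, on the other strand, 5 bases before it. The 9 genes have 14 windows in the table used, and 5 of these windows hold a CArG box, against 1.47% of all 32851 windows of this length. The Ldb3 windows among these 5 share the same box. Counted by gene, 3 of the 9 members had a CArG box, against 439 of 27025 genes. A MEF2 site occurred in 1 of the 14 windows and in 2.92% of all windows, and GGAATG in 1 of the 14 and in 12.6% of all. Both strands were searched, and no motif overlapped another in these windows. A match describes the letters of the window and not binding.

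The arrays measured fluorescence intensity, deposited by the authors on a linear scale and used here as log2. The background level of each array (121 to 124) is the 95th percentile of its probes for olfactory, vomeronasal and trace amine receptor genes, and 18307 to 19658 probes per array lay above it. No batch is labelled, and the few arrays limit the precision of every value. The hearts carried their tissue's markers: 7 of 8 cardiomyocyte markers were measured and above background on every array, with a summed intensity of 176870 to 211360, and Tnnt2 was not analysed here. The targeted gene could not check the labels, since 2 of the 3 Kdm4a probes were below background on all arrays. The brightest passed it on 1 array and read 102, 107 and 114 in the general, female and male knockouts against 115, 119 and 123 in their wild types.

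Among the 9 genes, Fhl1 had the widest range over the 6 arrays, and a single heart set it. Its brightest probe read 15637, 2920 and 3548 in the wild-type hearts of the general, female and male pairs, and 3347, 2625 and 2681 in the knockouts of the same pairs. The general wild-type heart thus stood apart, while the highest of the other 5 arrays was 1.35-fold above the lowest. Within wild types the highest array was 5.35-fold above the lowest, and within knockouts 1.27-fold. In bulk tissue, fewer cells of a type and less RNA per cell cannot be told apart.

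As log2 knockout minus wild type, the general pair differed by -2.22, which is 4.67-fold more Fhl1 signal in the wild type, the female pair by -0.15 and the male pair by -0.40. Fhl1 was the only one of the 9 genes with the same sign in every pair. A negative sign in all 3 pairs was found for 10.5% of all genes, so 1 of 9 is near the background, and 0 of 9 members had a positive sign in all 3, as 11.3% of genes did. Its mean was -0.93 ± 1.13 (SD, n = 3 pairs), and it did not pass the limma test over all genes (adjusted p = 0.9998). Without the general pair the mean was -0.28 ± 0.18 (SD, n = 2 pairs; limma adjusted p = 0.975 in the heart-specific comparison). The general difference was the eighth lowest of 10681 genes above background on at least 1 general array, of which 0.459% were lower by at least 1.

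**Figure D1:**
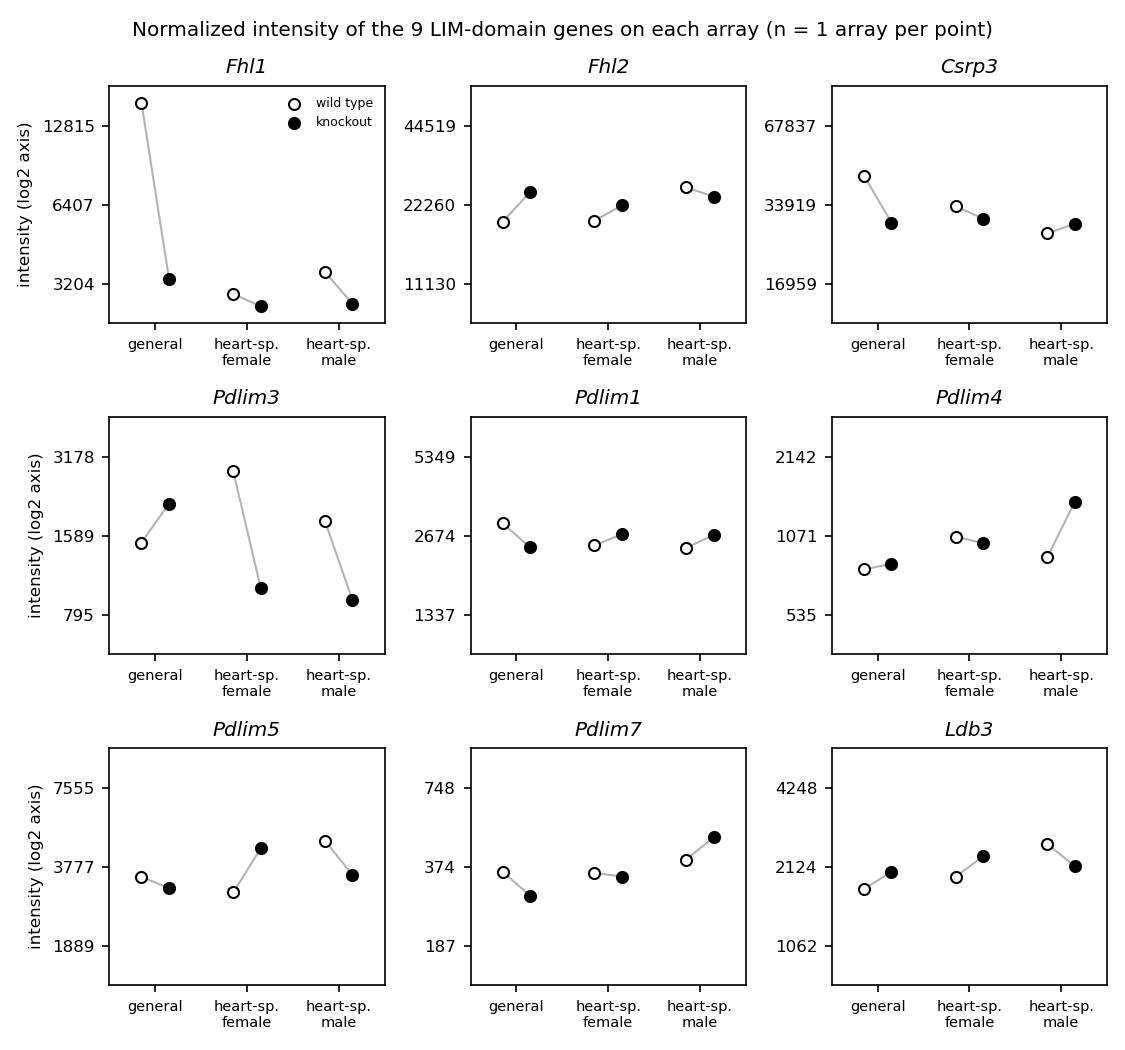
Normalized intensity of the 9 genes on each array (log2 axis, every panel spanning the same number of doublings), with open circles for wild-type and filled circles for knockout hearts and a line joining each pair. Fhl1 is high in the general wild type alone (15637 against 2625 to 3548 on the other arrays), and Pdlim3 is lowest in the heart-specific knockouts (1004 and 903).

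The second Fhl1 probe gave the same picture. It read 14614, 3102 and 2960 in the wild types (pairs in the order above) against 3208, 2832 and 2472 in the knockouts, with differences of -2.19, -0.13 and -0.26. The remaining Fhl1 probe lay between 104 and 127 on all arrays and passed the background level on 2 of them, so it carried no usable signal. The brightest and the second probe are listed under different Fhl1 transcript accessions and had the same sign in every pair.

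Fhl2, the close relative of Fhl1 that is most abundant in heart, behaved differently. The wild types of the general, female and male pairs read 19153, 19310 and 25870, and their knockouts 24829, 22087 and 23874. Wild types and knockouts overlapped, and the differences were 0.37, 0.19 and -0.12. The mean was 0.15 ± 0.25 (SD, n = 3 pairs), with a 95% interval of -0.14 to 0.44 in the limma fit. A second, dimmer Fhl2 probe differed by 0.19, 0.32 and 0.03.

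Csrp3 read 43741, 33447 and 26302 in the general, female and male wild types, and 28953, 29927 and 28705 in the respective knockouts. The general wild type was again the highest array, and the 3 knockouts lay within 1.04-fold of each other. The differences were -0.60, -0.16 and 0.13. All 3 Csrp3 probes differed by -0.60 to -0.67 in the general pair, and in the heart-specific pairs they ranged from -0.16 to 0.23. The brightest probe gave some of the highest readings here, where the maximum was 50962. A scanner can compress differences near its ceiling. The dimmest Csrp3 probe read 10061 to 16639 and differed by -0.60 in the general pair.

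Pdlim3, also called ALP, binds alpha-actinin and is abundant in striated muscle. The female knockout read 1004 against 2796 in its wild type, the male knockout 903 against 1802, and the general knockout 2102 against 1492. Both heart-specific knockouts lay below all other arrays, a position that Fhl1 also had, by smaller distances, and that 5.05% of all genes shared. Fhl1 and Pdlim3 were the 2 of 9 members lower in both heart-specific knockouts, and 25.8% of all genes were. The wild types spanned 1.87-fold among themselves.

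In log2 terms the Pdlim3 difference was -1.48 for the female hearts and -0.996 for the male hearts (2.79-fold and 1.995-fold more signal in the wild type). For the general hearts it was 0.49, or 1.41-fold more in the knockout. A general pair opposite to both heart-specific pairs was found for 2 of 9 members, Pdlim3 and Pdlim1, and for 28.5% of all genes. The heart-specific mean was -1.24 ± 0.34 (SD, n = 2 pairs), with a limma standard error of 0.16, a 95% interval of -1.61 to -0.86 and an unadjusted p of 0.000124, rank 3 of 11285 genes. It did not pass after adjustment over all genes (limma adjusted p = 0.355). It passed where the kept probes of each gene were averaged (limma adjusted p = 0.0492), and over all tested alternatives the adjusted p ran from 0.0492 to 0.9997. Pdlim3 was chosen with earlier results of these data known, so its rank and p-values are not independent of that choice. Over 3 pairs the mean was -0.66 ± 1.03 (SD, n = 3 pairs), since the general pair had the opposite sign.

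**Figure D2:**
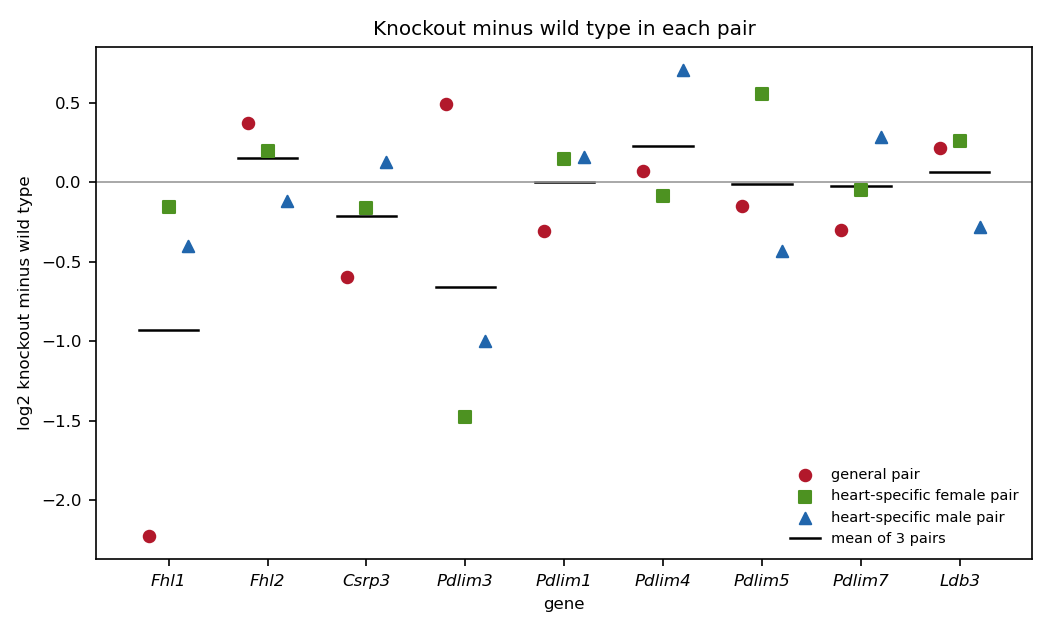
Log2 knockout minus wild type of each gene in the general (circle), female (square) and male (triangle) pair, with a bar at the mean of the 3 pairs. Fhl1 has its difference in the general pair (-2.22), Pdlim3 has its differences in the female (-1.48) and male (-0.996) pairs with the opposite sign in the general pair (0.49), and the other 7 genes lie within 0.71 of 0.

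The second Pdlim3 probe read 269 and 234 in the female and male knockouts against 639 and 572 in their wild types, and 596 in the general knockout against 372. Its differences were 0.68 (general), -1.25 (female) and -1.29 (male), the signs of the brightest probe. Tested on its own among 21016 kept probes, it did not pass in the heart-specific line (limma adjusted p = 0.255), and neither did the brightest (limma adjusted p = 0.397).

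The remaining PDZ-LIM genes had smaller and mixed differences. Pdlim1 (CLP36), which binds alpha-actinin in many cell types, read 2978, 2450 and 2402 in the wild types of the general, female and male pairs and 2409, 2706 and 2684 in their knockouts. Its heart-specific differences of 0.14 and 0.16 were close together, and the general difference was -0.31. It was the only member higher in both heart-specific knockouts, and 24.5% of all genes were. The fit did not call it (limma adjusted p = 0.975), with a 95% interval of -0.15 to 0.45.

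Pdlim4 (RIL), a regulator of actin stress fibres, read 795, 1061 and 886 in the general, female and male wild types and 835, 1000 and 1443 in their knockouts. The male knockout was the highest array and gave a difference of 0.70, against 0.07 and -0.09 in the general and female pairs. Pdlim7 (Enigma) read 357, 354 and 397 in these wild types and 290, 342 and 483 in the knockouts, with differences of -0.30, -0.05 and 0.28. For both genes the groups overlapped, and the male knockout was the highest array. The second probe of Pdlim4 passed the background level on 3 arrays, and that of Pdlim7 on none.

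Pdlim5 (ENH), which couples protein kinase C to the Z-disc, went in opposite directions in the heart-specific pairs. Its brightest probe read 4425 in the female knockout against 3008 in its wild type, 3510 in the male knockout against 4744, and 3119 in the general knockout against 3455. The differences were -0.15 (general), 0.56 (female) and -0.43 (male). A second probe, listed under another transcript accession, read 1408 in the general wild type and 619 to 836 on the other 5 arrays, with differences of -0.75, 0.40 and -0.06. One more probe, the dimmest kept, differed by -0.29, -0.23 and 0.09. The 3 kept Pdlim5 probes differed in sign in both heart-specific pairs, so the values of the brightest probe hold for that probe.

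Ldb3, whose protein stabilises the Z-disc, read 1743, 1942 and 2587 in the general, female and male wild types and 2026, 2322 and 2127 in their knockouts. Its differences were 0.22, 0.26 and -0.28, and wild types and knockouts overlapped. The 4 Ldb3 probes above background on all arrays are listed under 3 transcript accessions. All 4 were higher in the female knockout (0.10 to 0.33) and lower in the male knockout (-0.64 to -0.19). In the general pair 3 of them were higher and 1 differed by -0.03.

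**Figure D3:**
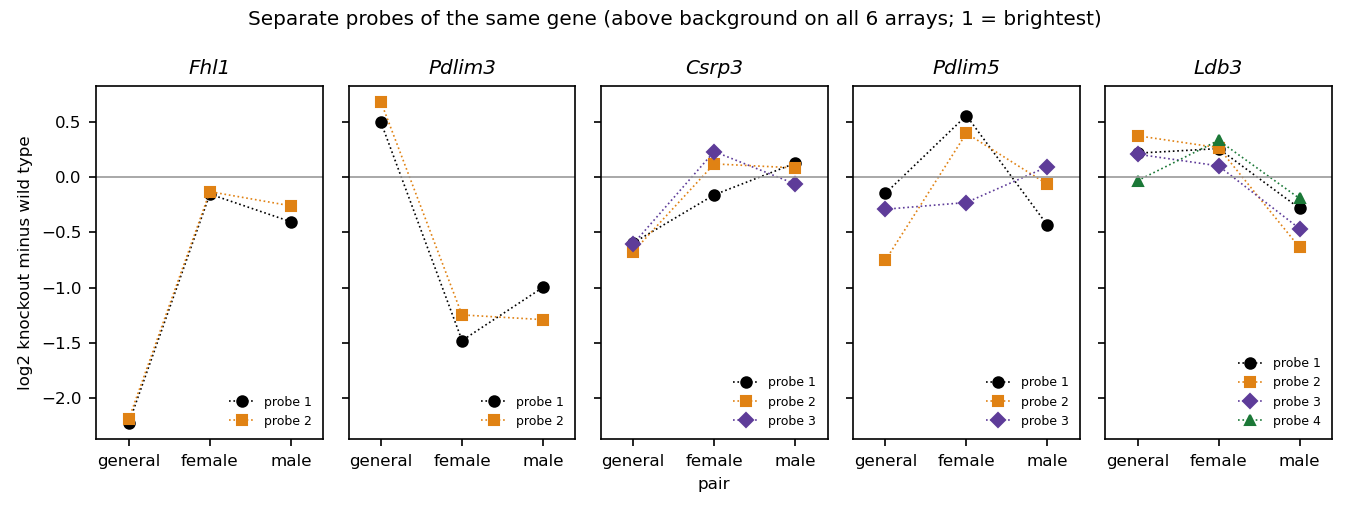
Log2 knockout minus wild type for each probe above background on all 6 arrays, for 5 genes with several such probes. Probe 1 is the brightest, and lines join a probe's pairs and mark no order. Fhl2 also has 2 such probes and is not drawn, and these differ in sign in the male pair (-0.12 and 0.03). The probes of Fhl1 and of Pdlim3 follow each other, those of Ldb3 share the sign change between the female and male pairs, and those of Pdlim5 part in every pair, with -0.75 to -0.15 in the general, -0.23 to 0.56 in the female and -0.43 to 0.09 in the male pair.

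In the limma fit over 3 pairs with the pair as a block, 0 of the 9 genes passed an adjusted p under 0.05, and 0 of all 11285 genes did (0%). At an unadjusted p under 0.05 there were 303 genes in all (2.68%) and 1 member, Fhl1, and with every kept probe on its own the limma fit called 0 probes. In the heart-specific comparison 0 of 9 members and 0 of 11285 genes passed (0%), with 505 genes (4.47%) and 1 member, Pdlim3, at an unadjusted p under 0.05 and 0 probes called in the limma fit of single probes. For the 7 members other than Fhl1 and Pdlim3, the 95% intervals over 3 pairs lay between -0.56 (the lower bound of Csrp3) and 0.61 (the upper bound of Pdlim4). These intervals are not adjusted for the number of genes tested, so their ends are not limits of detection. Fhl1 had an interval of -1.76 to -0.094 and did not pass either. The p-values rest on the spread between these hearts, moderated by a prior over all genes, and no label states that the hearts came from separate animals.

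The knockout effects of both lines were compared directly in a fit with a knockout term for each line. For Fhl1 the general effect minus the heart-specific effect was -1.95 (SE 0.24, limma adjusted p = 0.0653), and for Pdlim3 it was 1.73 (SE 0.27, limma adjusted p = 0.152). Neither passed, while 9 of 11285 genes did (0.0798%). At an unadjusted p under 0.05, 3 of 9 members (Fhl1, Pdlim3 and Csrp3) and 725 genes (6.42%) were found, and the limma fit of single probes called 19 of 21016 probes, none of a member. With no filter on dim probes Fhl1 passed (limma adjusted p = 0.0291, and 0.0291 to 0.81 over all alternatives tested), and with averaged probes Pdlim3 passed (limma adjusted p = 0.0216, and 0.0216 to 0.946 over all alternatives tested). Csrp3 had a difference between lines of -0.58 (SE 0.24, limma adjusted p = 0.768), and the other 6 members had values from -0.46 to 0.34. The general effect in this test rests on 1 pair. Its spread is taken from the heart-specific pairs (1 residual degree of freedom) and from the prior over all genes (5.74 degrees of freedom).

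Over the 6 arrays, the profiles of the genes were compared by a distance on unscaled values, which mixes the size of a gene's changes with their shape. The root mean square distance between 2 genes' log2 values, each centred on its own mean, was smallest for Fhl2 and Ldb3 (0.12) and for Pdlim5 and Ldb3 (0.14). It was largest for Fhl1 and Pdlim4 (1.09), and Fhl1 and Pdlim3 lay 1.04 apart. The member nearest to Fhl1 was Csrp3 (0.71), and the member nearest to Pdlim3 was also Csrp3 (0.60).

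By the same distance, the 5 other genes most like Fhl1 were the platelet tubulin Tubb1 (0.17), the acute-phase serpin Serpina3n (0.21), the platelet lipoxygenase Alox12 (0.25), the muscle ankyrin repeat gene Ankrd2 (0.26) and the atrial light chain Myl7 (0.26). All 5 had their highest signal in the general wild type, with 526 for Tubb1 against 113 to 131 on the other arrays and 914 for Serpina3n against 154 to 294. They were picked for likeness to Fhl1 on these same arrays, so the shared high array is no separate result. Tubb1, Ankrd2 and Myl7 exceeded background on only 2 of the arrays. Of all genes, 0.248% had a general wild type at least 1 (log2) above the other 5 arrays, as Fhl1 had.

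The 5 genes most like Pdlim3 were Cd300lg, a glycoprotein of capillary endothelium (0.23), the ceramidase Acer2 (0.32), the catenin-like gene Ctnnal1 (0.32), Gpn2 (0.32) and Nampt, an enzyme of NAD synthesis (0.34). Cd300lg read 473 and 437 in the female and male knockouts against 858 and 686 in their wild types, and 945 in the general knockout against 668. All 5 were lower in both heart-specific knockouts and higher in the general knockout. They were picked for likeness to Pdlim3 on these same arrays, so the shared signs are no separate result. Their heart-specific differences were smaller than those of Pdlim3, from -0.98 to -0.21.

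**Figure D4:**
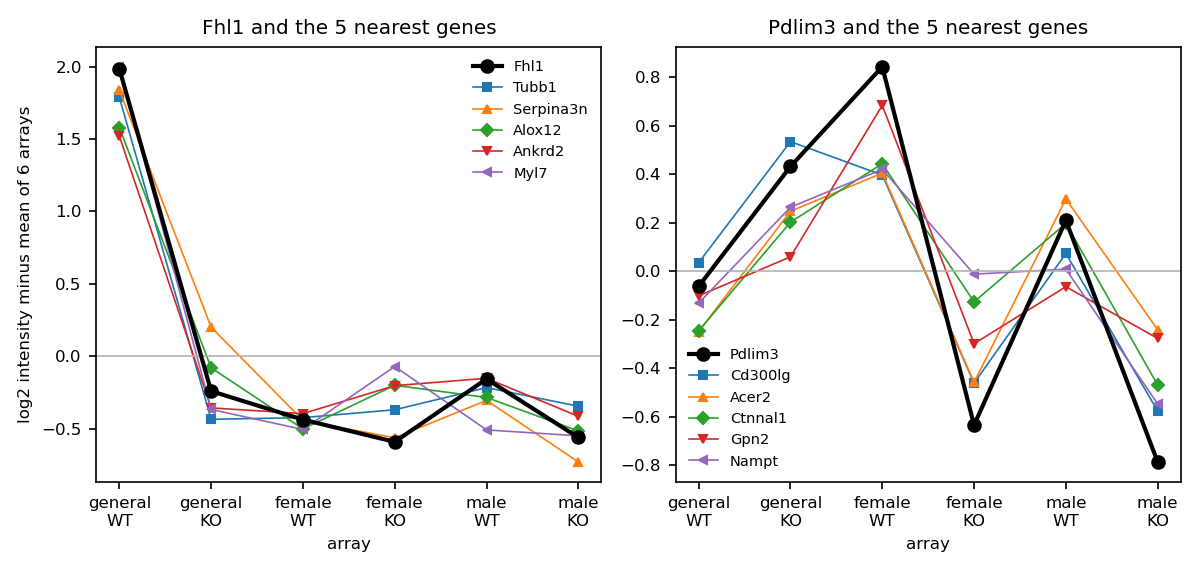
Log2 intensity minus the gene's mean over the 6 arrays for Fhl1 (left, black) and Pdlim3 (right, black) with the 5 genes at the smallest distance, arrays ordered by pair. The Fhl1 group has a single high array, the general wild type, and Pdlim3 is lowest in the 2 heart-specific knockouts, where each of its 5 nearest genes is below its own wild type.

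Among other LIM-domain genes, 20 of 27 listed were measured and 0 passed in any of the 3 comparisons. In every pair 4 were higher and 1 lower, where 11.3% and 10.5% of all genes were. The median over 3 pairs was 0.0074 against 0.0036 for all genes. Ablim3, an actin-binding LIM gene, had differences of 0.64, 0.11 and 0.36 in the general, female and male pairs, a mean of 0.37 ± 0.27 (SD, n = 3 pairs). Limd1 had a mean of 0.17 ± 0.07, the actin-binding gene Lasp1 of 0.11 ± 0.14, and the focal adhesion gene Lims1 of -0.12 ± 0.11 with signal above background on 3 arrays. Fhl3 and Fhl5 had 1 probe each and Fhl4 had 2, none of which was kept.

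Of other Z-disc genes, 27 of 34 listed were measured, and again 0 passed in any comparison. In the general pair 21 were lower in the knockout and 6 higher, while 5244 of all 11285 genes were lower and 6027 higher. The general median was -0.24 against 0.02 for all genes, and the female and male medians were 0.07 and -0.02. By at least 1, 4 of the 27 were lower in the general knockout and 0 higher, where 0.459% and 0.15% of all genes were. The 49 lower and 16 higher genes behind these shares became 349 and 263 after background subtraction with an offset of 16.

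These 4 genes were Flnc, Ankrd1, Synpo2l and Ankrd2, of which Flnc, Ankrd1 and Synpo2l are named after their values were seen. Flnc, the muscle filamin, read 6591 in the general wild type and 2305 to 3088 on the other arrays. Ankrd1, a titin-bound protein induced by stretch, read 23874 there and 5375 to 9458 elsewhere, and Synpo2l read 1015 there and 267 to 397 elsewhere. Ankrd2 read 386 in the general wild type and was below background in the general knockout, which is at least 3.15-fold lower. As for Fhl1, the general wild type was the highest array for each. Their heart-specific differences lay between -0.26 and 0.49.

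In every pair 2 of the 27 Z-disc genes were lower and 1 higher, where 10.5% and 11.3% of all genes were. Des, the intermediate filament desmin, had a mean of -0.24 ± 0.16 (SD, n = 3 pairs) and Synpo2 of -0.23 ± 0.18. The calcineurin subunit gene Ppp3ca had a mean of 0.12 ± 0.15. The widest heart-specific difference of the list was in Xirp2, an actin-binding repeat protein also named after its values were seen. It read 720 in the male wild type and 3624 in the male knockout, a difference of 2.33, against 0.13 in the female pair.

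**Figure D5:**
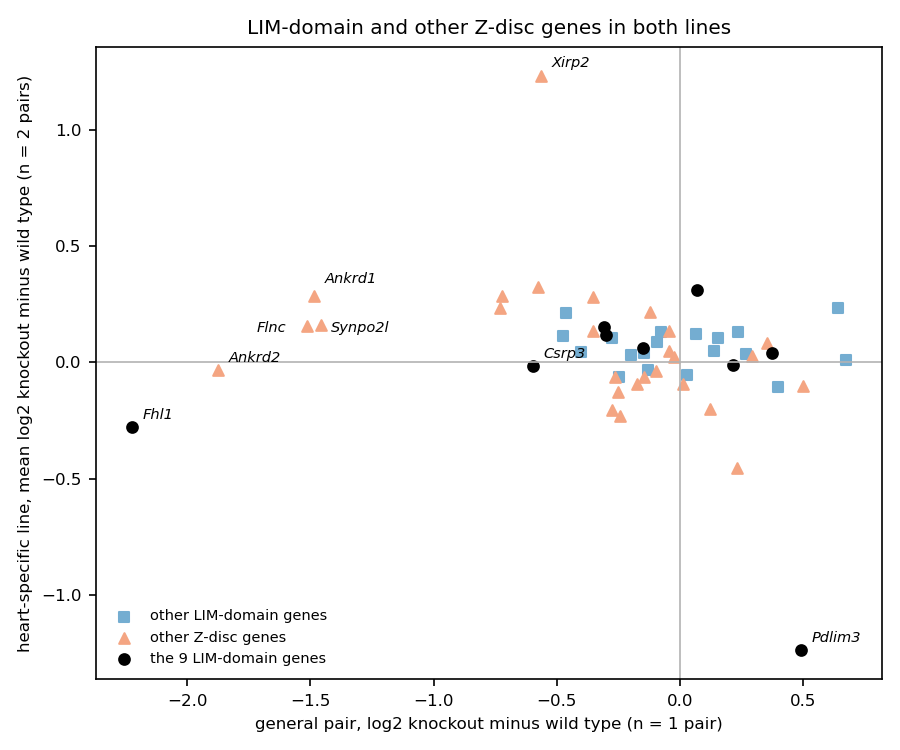
General-pair difference (x axis) against the mean of the 2 heart-specific pairs (y axis), both log2 knockout minus wild type, for the 9 genes (black), other LIM-domain genes (squares) and other Z-disc genes (triangles). Fhl1 lies at the left with Ankrd2, Flnc, Ankrd1 and Synpo2l, and Pdlim3 lies alone at the lower right.

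Regulators of muscle transcription and splicing were measured for 16 of 19 listed genes, with 0 past any test and a median over 3 pairs of -0.03. In every pair 2 were higher and 1 lower, where 11.3% and 10.5% of all genes were. Srf, which encodes the factor that binds the CArG box, read 1731, 2040 and 1573 in the general, female and male wild types and 1618, 1781 and 1849 in their knockouts. Its cofactor Myocd differed by 0.14, -0.22 and -0.14, and its cofactor Mrtfb by -0.11, -0.04 and -0.09, near background. The splicing factor Rbm24 had a mean of 0.36 ± 0.24 (SD, n = 3 pairs), Tbx5 of 0.19 ± 0.11, and Rbfox1 differed by 0.39, 0.11 and -0.43.

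Some markers of other cell types were, like Fhl1, highest in the general wild type, and others of the same lists were not. Of all 11285 genes, 5244 were lower and 6027 higher in the general knockout. Of the atrial list (8 of 9 measured, Bmp10 not kept), 5 markers were lower and 3 higher in the general knockout, with a median of -0.98. Its summed intensity was 43854 in the general wild type and 14071 to 27137 on the other arrays, of which Nppa, the atrial natriuretic peptide gene, gave 39341 in the general wild type. Myl4, the atrial light chain, read 2385 there and 295 to 1078 elsewhere, while Stard10, Tbx5 and Nr2f2 differed by 0.30, 0.29 and 0.21, higher in the knockout, with Tbx5 and Nr2f2 near background.

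All 4 measured platelet markers of 5 were lower in the general knockout (median -1.72), and their sum was 3949 in the general wild type and 996 to 1575 elsewhere. Of the skeletal muscle list, 1 of 4 measured markers was lower and 3 were higher in the general knockout (median 0.15), and the probes of Actn3, Tnnt3, Myh1 and Myh4 were not kept. The skeletal sum was 24850 in the general wild type and 10575 to 16086 elsewhere, through Acta1 alone, which heart also expresses. Acta1 read 16279 there and 1398 to 4368 elsewhere, while Ckm had its lowest reading there (8209, against 11322 in the general knockout). Red cell markers (4 of 5) had 3 lower and 1 higher, fibroblast markers (6 of 7) 4 lower and 2 higher, and macrophage markers (5 of 6) 4 lower and 1 higher. Beside these marker counts, 5244 of all 11285 genes were lower and 6027 higher in the general knockout. The part of these markers in the Fhl1 difference was not tested.

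Beside Pdlim3, 5 of the 8 atrial markers were higher and 0 lower in both heart-specific knockouts, against 24.5% and 25.8% of all genes. Of these 5, Tbx5 and Nr2f2 were near background, and Nr2f2 differed by 0.01 in the male pair. The sum of the atrial list, mostly Nppa, was 24083 and 27137 in the female and male knockouts against 14071 and 19239 in their wild types. Of the 5 measured endothelial markers of 6, 1 was higher in both, Egfl7, which read 5389 and 7133 against 4667 and 4812. The endothelial medians were 0.21 in the female and -0.13 in the male hearts, where Pecam1, Cdh5 and Tie1 were lower in the knockout. Of 6 measured smooth muscle markers of 7, 3 were lower and 0 higher in both (medians -0.06 and -0.17). The shares of all genes were 25.8% lower and 24.5% higher in both. The 3 lower smooth muscle markers were Tagln, Myh11 and Des. Of these, Tagln exceeded background on 3 arrays, and Des is also on the Z-disc list. Acta2 differed by -0.10 and 0.54 and sets most of the male smooth muscle sum. Their part in the Pdlim3 difference was not tested.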

How the data were processed

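Total RNA of 6 mouse hearts was labelled as cRNA and hybridised to Illumina bead arrays, per the labels' protocols. The authors deposited normalized intensities made with GenomeStudio, per the submitters' processing notes, with no version, background option or normalization option stated. These intensities run from 82.5 to 50962, their sorted values differ by at most 2.32% between arrays, and no background appears to be subtracted, which compresses the differences of dim genes. The 12 value columns of another deposited table have number headings that fit none of the labels and were not used.

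Symbols came from the platform annotation (34885 probes with 1 gene, 18 with several, 10378 with none), of which 34807 matched a gene ID of GRCm38.p6. Probes above background on at least 2 arrays were kept (21016), and the brightest kept probe represented a gene (4342 of 11285 genes had several). Log2 values were tested with limma 3.58.1 in R 4.3.3 (lmFit, eBayes), adjusted by Benjamini and Hochberg's method over every tested gene with a threshold of 0.05, with the pair as a block (2 residual and 5.30 prior degrees of freedom), or with a knockout term for each line (1 and 5.74). The pairs come from the titles, and within each pair the arrays deviated together from their genotype's mean over genes (r = 0.34, 0.33 and 0.35). A permutation of 3 against 3 arrays cannot give a p under 0.1, and a sign flip of the 3 pairs cannot give a p under 0.25. The fits were run on simulated data with the same spread for every gene. That run did not cover the unequal spreads of the measured genes.

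The members and lists were chosen with earlier results of these data known. The genes named are all members, up to 4 of each list (largest mean among those with the same sign in every pair, then largest general difference), and the 5 genes nearest to Fhl1 and to Pdlim3. Srf and Myocd are named for their role. Alternatives changed the probe choice, the filter, the background, the normalization, the block and the pairs used.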

Additional observations from a re-analysis of the deposited data

Results flagged for a closer look

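Of the members, none passed the test of the difference between lines, whose smallest limma adjusted p was 0.0653 (Fhl1). Among the marker genes printed beside them, 7 had a general knockout effect (1 pair) that differed from the heart-specific effect (2 pairs) in that test, all in the direction of Fhl1. The difference between lines was -4.29 for the atrial light chain Myl4 (limma adjusted p = 0.0386), with differences of -2.94 (general), 1.87 (female) and 0.83 (male). It was -2.80 for the red cell gene Alas2 (limma adjusted p = 0.0367). The other 5 values rest in part on readings below background, so they are fitted values and not measured sizes. They were -3.07 for the red cell gene Slc4a1 and -3.38 for the platelet gene Ppbp (limma adjusted p = 0.0171 for both), each below background in the female wild type. They were -2.56 for Myl7 and -2.18 for the platelet gene Tubb1 (limma adjusted p = 0.0497 for both), each above background on 2 arrays, and -2.23 for Fcer1g, a receptor subunit of myeloid cells (limma adjusted p = 0.0434). In the general knockout the readings of Myl7, Tubb1 and Fcer1g were below background, and the general wild type was at least 5.08-fold, 4.29-fold and 4.25-fold higher.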

How the results depend on the processing

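Of 370 comparisons with an alternative, 337 were labelled the same. A tested difference had to keep its direction and side of the threshold, an untested difference its direction, and a gene count a similar size. Some alternatives refit the same arrays and give identical values, so the 370 are not independent. Over 3 pairs the count of genes past the limma test was 0 in all 11 alternatives run, with no replicate block too. In the heart-specific line it was 0, but 2 with averaged probes, 1 with no filter on dim probes and 1 with median-centred arrays. For the difference between lines it was 9, with 7 under quantile normalization and 12 with median-centred arrays, but 26 with averaged probes, 21 with no filter, and 0 with probes above background on all arrays, with background subtraction at either offset, and with no replicate block. With no replicate block the limma adjusted p of Fhl1 for the difference between lines was 0.245. General-pair genes lower and higher by at least 1 numbered 349 and 263 with an offset of 16, and 108 and 42 with an offset of 50. Averaging kept probes turned the heart-specific value of Csrp3 to 0.056, and it brought the general difference of Fhl1 to -1.44, since the dimmest probe enters the mean. The cause of the other changes was not tested.

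Leaving out 1 pair never turned Fhl1 or Pdlim3 (over 3 pairs -1.31 to -0.28 and -1.24 to -0.25), but it turned members near 0. Over 3 pairs the values ran from -0.081 to 0.15 for Pdlim1, -0.29 to 0.20 for Pdlim5, -0.17 to 0.12 for Pdlim7, -0.033 to 0.24 for Ldb3 and -0.0070 to 0.39 for Pdlim4. In the heart-specific line, where 1 pair remains and no test is possible, they ran from -0.12 to 0.19 for Fhl2, -0.43 to 0.56 for Pdlim5, -0.16 to 0.13 for Csrp3, -0.086 to 0.70 for Pdlim4, -0.049 to 0.28 for Pdlim7 and -0.28 to 0.26 for Ldb3. For the difference between lines, added after seeing the data, they ran from -0.70 to 0.29 for Pdlim5, -0.63 to 0.16 for Pdlim4 and -0.041 to 0.50 for Ldb3.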
